A study of Mus musculus with 11 samples.

Results

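The C-type lectin receptor genes described here are *Clec2d*, *Clec4a1*, *Clec4a2*, *Clec4a3*, *Clec4d*, *Clec4e*, *Clec4n*, *Clec5a* and *Clec12a*, 9 of the 36529 genes counted in these samples, taken by gene symbol. RNA was sequenced from BV2 cells, a transformed line of C57BL/6 mouse microglia, and reads were counted per gene in 11 samples. In one experiment, 3 samples (ApoE4) received the His-tagged amino-terminal fragment nApoE4, residues 1 to 151 of human apolipoprotein E4, at 25 µg/ml for 5 h, and 3 untreated samples (ControlA) served as their controls. In a second experiment, 2 samples (ApoE3) received the matching fragment of apolipoprotein E3, nApoE3, at the same dose and time, and 3 untreated samples (ControlB) served as their controls. The fragments differ by a single amino acid. The labels name PBS as the vehicle while the methods describe conditioned media for untreated cells, and the sources do not settle which was used for the controls. Because each fragment was tested in an experiment of its own, fragment and experiment cannot be told apart. The methods call the measurements independent without stating whether replicates came from separate cultures, so the p-values measure the spread between these samples.

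C-type lectin receptors are surface proteins of myeloid cells that bind sugars, lipids and products of damaged cells through a shared fold. Some of them carry no signalling motif of their own and work through adaptor proteins (FcRγ, encoded by *Fcer1g*, or DAP12, encoded by *Tyrobp*), which recruit the kinase SYK and then CARD9, BCL10 and MALT1 to switch on NF-κB. Others carry an inhibitory motif in their tail that recruits phosphatases. In microglia and macrophages the activating members are known for responses to fungi, mycobacteria and dead cells.

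All 9 genes lie on chromosome 6 of the mouse genome (RefSeq, GRCm38.p6). *Clec4a1*, *Clec4a3*, *Clec4a2*, *Clec4n*, *Clec4d* and *Clec4e* share one stretch, chr6:122921848-123289871, *Clec2d* and *Clec12a* share another, chr6:129180615-129365303, and *Clec5a* stands apart at chr6:40574898-40585805. No member's span overlapped another RefSeq gene. Of the transcripts cut into every possible run of 75 bases, the read length, *Clec4a2* shared 97 of 2990 runs (3.24%) with its neighbours *Clec4a4* and *Clec4b1*, and the other 8 members shared none. Reads mapping to several places were not counted, so a small part of the *Clec4a2* reads may be missing from its count.

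RefSeq promoter sequences (GRCm38.p6) were matched for 8 of the 9 members, all but *Clec4n*. The 250 bases before each start in that table were searched on both strands for the NF-κB motif (GGG and TTNCC with 2 bases of any kind between them), the C/EBP motif TTNNGCAA, the interferon response motif (a GAAA pair with 2 bases of any kind between), the AP-1 motif TGANTCA and the PU.1 motif GAGGAAGT, motifs of factors known to act on myeloid genes. Matches were found in 3 of the 8 members, and every match is shown. Shares over mouse promoters are given below for each motif. The share holding any of these motifs was not computed, so the number of members with a match has no background. Each line gives the match in capitals with 25 bases on either side, 5′ to 3′ along the gene's own strand.
Clec4e, C/EBP: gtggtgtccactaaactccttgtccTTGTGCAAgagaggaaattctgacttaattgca
Clec2d, interferon response: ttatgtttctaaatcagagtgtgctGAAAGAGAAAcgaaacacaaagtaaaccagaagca
Clec12a, AP-1: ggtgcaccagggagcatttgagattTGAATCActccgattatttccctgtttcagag
Clec12a, C/EBP: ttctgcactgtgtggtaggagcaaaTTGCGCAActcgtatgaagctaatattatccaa

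The *Clec4e* window is chr6:123289905-123289962 on the minus strand, with the match 66 to 59 bases before the start. The *Clec2d* window is chr6:129180401-129180460 on the plus strand (189 to 180 bases before the start), and the *Clec12a* windows are chr6:129350006-129350062 (213 to 207 bases) and chr6:129350079-129350136 (140 to 133 bases), both on the plus strand. For *Clec12a* the start in the promoter table lies inside the gene's RefSeq span, so both of its windows are downstream of the outermost annotated start, and *Clec4a3* was searched before each of 2 starts. Over 32851 mouse promoters of the same length, 9.56% held the C/EBP motif, 2.98% the interferon response motif, 6.75% the AP-1 motif, 4.11% the NF-κB motif and 2.44% the PU.1 motif. *Clec4a1*, *Clec4a2*, *Clec4a3*, *Clec4d* and *Clec5a* held none of these letters in the window. A match describes the sequence and shows no binding.

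Depth was 39732710 to 44162511 counts in the nApoE4 experiment and 55809688 to 69768666 in the nApoE3 experiment. A floor of 3 counts equals 0.043 to 0.0755 CPM (a gene's counts per 1000000 counts of its sample), and every member stood above it in every sample, with the lowest count being 24. No member was at 0 in any sample. *Clec7a*, which encodes the β-glucan receptor Dectin-1, was at 0 in all 11 samples. Its span lies within a longer RefSeq gene, *Gm45969*, which was not among the genes counted, and the part of that overlap in the value was not tested. Of 11 microglial markers, 7 exceeded 1 CPM in some sample and their summed level was 1970 to 2700 CPM, led by *Cd68* and *Csf1r*. *P2ry12* was at 0 in all samples, *Sall1* was at 0 to 2 counts and *Aif1* at 0 to 10 counts, and *Trem2* was at 64.9 CPM in ControlA replicate 1 but at 0.343 to 5.32 CPM in the other 10 samples. Summed markers reached at most 1.85 CPM for neutrophils, 0.227 for T and NK cells, 0.378 for B cells and 0.36 for fibroblasts, 27.1 for dendritic cells, 6.16 for neurons, 7.06 for astrocytes and 24.9 for oligodendrocytes. The microglial sum was lower in ApoE4 (2350 to 2430 CPM) than in ControlA (2670 to 2700) and overlapped between ApoE3 (1970 to 2000) and ControlB (1970 to 2040). Its genes did not move together. After nApoE4, 1 of 7 tested rose and 4 fell (edgeR, adjusted p under 0.05), against 28.6% of all genes in each direction. After nApoE3, 3 of 8 rose and 4 fell, against 33.1% and 34.6%. *Ptprc* was higher in ApoE4 (mean 486 CPM against 268) and ApoE3 (396 against 238). Some other sums also moved, carried mostly by 1 gene each. The astrocyte sum was higher in ApoE4 (5.91 to 7.06 against 1.22 to 1.49) and ApoE3 (4.0 to 4.18 against 1.06 to 1.24), through *Slc1a2*, while *Gfap* and *Aqp4* stayed at 0 to 4 counts. The neuronal sum was higher in ApoE4 (5.22 to 6.16 against 2.07 to 2.67), through *Tubb3*. The dendritic cell sum, mainly *Zbtb46*, was higher in ApoE4 (24.5 to 25.5 against 17.5 to 20.2) and lower in ApoE3 (23.5 to 24.0 against 25.5 to 27.1), and the neutrophil sum was higher in ApoE3 (0.67 to 0.865 against 0.158 to 0.376), with *Ly6g* at 0 in all samples. Against the dendritic cell sum, *Xcr1* of that list was higher in ApoE3 (mean 1.84 CPM against 0.264 in ControlB). The oligodendrocyte sum, mainly *Mbp*, was lower in ApoE3 (20.4 to 23.3 against 24.3 to 24.9). The fibroblast sum was higher in ApoE4 (0.183 to 0.225 against 0.0679 to 0.126), through *Col1a1* and *Pdgfra*. The part of these levels in the results was not tested. ControlA replicate 2 differed more from its group than other replicates did (chi-square per degree of freedom 23.8 and 44.1, against 2.98 to 11.1 for the other pairs in all groups), and results are given without it where it moves them. In bulk RNA, a smaller share of cells and less RNA per cell cannot be told apart.

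After nApoE4, 7 of the 9 members rose and none fell, against 28.6% of the 14240 genes tested that rose and 57.2% that changed in either direction (edgeR, adjusted p under 0.05). After nApoE3, 7 rose and 1 fell, where 33.1% of 14817 genes rose, 34.6% fell and 67.7% changed. The same 7 genes rose in both experiments: *Clec4e*, *Clec2d*, *Clec4a1*, *Clec12a*, *Clec5a*, *Clec4d* and *Clec4n*. With a fold change above 2 required as well, 6 members rose after nApoE4 (10.2% of all genes) and 7 after nApoE3 (9.6%). The CPM of treated and control samples did not overlap for 8 members in the nApoE4 experiment and for all 9 in the nApoE3 experiment, where 64.7% and 78.6% of all genes tested did not overlap. The median log2 fold change of the 9 was 1.75 after nApoE4 and 2.09 after nApoE3, where the medians of all genes tested were 0.00128 and -0.00261.

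**Figure D1:**
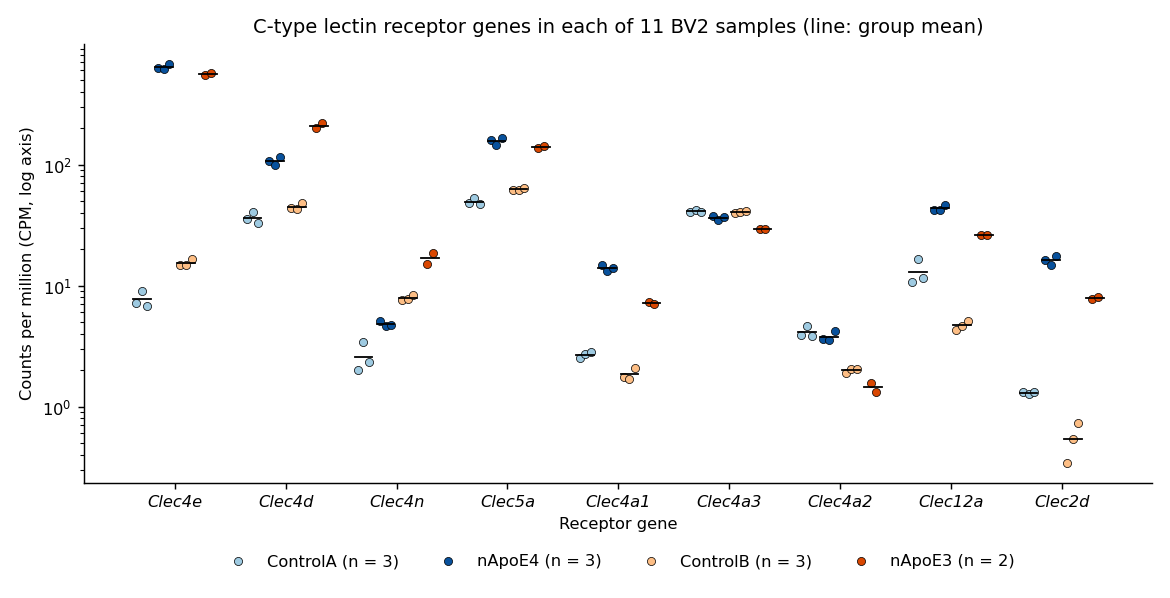
Level of each receptor gene in CPM on a log axis, with one point per sample, coloured by group, and a line at each group mean. The ApoE4 and ApoE3 points of *Clec4e* sit at 550 CPM or above while its control points sit at 16.7 CPM or below, and the points of *Clec4a2* and *Clec4a3* stay close to each other within an experiment.

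*Clec4e* encodes Mincle, which pairs with FcRγ and recognises mycobacterial glycolipid and SAP130 from dead cells. It rose the most of the 9 in both experiments. In ControlA replicates 1, 2 and 3 it was at 7.20, 9.06 and 6.78 CPM, and in the ApoE4 replicates at 622, 617 and 678 CPM. In ControlB it was at 14.8, 14.7 and 16.7 CPM, and in the ApoE3 replicates at 550 and 567 CPM. Every treated sample was thus far above every control sample of either experiment. The group means were 7.68 CPM ± 1.21 (SD, n = 3) and 639 CPM ± 33.4 (SD, n = 3) for ControlA and ApoE4, an 88.3-fold rise (95% interval 71.5 to 109.0; log2 6.46, SE 0.135, adjusted p = 6.93e-10) that ranked 46th from the top of the genes tested. Without ControlA replicate 2, the highest of its group, the log2 fold change was 6.63. For nApoE3 the means were 15.4 CPM ± 1.14 (SD, n = 3) and 559 CPM ± 12.5 (SD, n = 2), a 39.9-fold rise (37.6 to 42.4; log2 5.32, SE 0.0395, adjusted p = 3.22e-16), ranked 72nd.

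*Clec4d* encodes MCL, a receptor that forms complexes with Mincle and FcRγ, and lies at chr6:123262107-123275268 beside *Clec4e* (chr6:123281789-123289871) on the opposite strand. ControlA replicates held 35.3, 40.6 and 33.1 CPM of it and ApoE4 replicates 106, 100 and 115 CPM. ControlB replicates held 43.9, 42.5 and 47.7 CPM and ApoE3 replicates 199 and 221 CPM. Treated and control samples did not overlap in either experiment, and both ApoE3 samples were above all 3 ApoE4 samples. The rise was 3.13-fold after nApoE4 (log2 1.65, SE 0.0997, adjusted p = 5.68e-07) and 5.16-fold after nApoE3 (log2 2.37, SE 0.0488, adjusted p = 7.14e-13).

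*Clec4n* encodes Dectin-2, an FcRγ-coupled receptor for fungal mannan. In ControlA it was at 2.01, 3.42 and 2.34 CPM and in ApoE4 at 5.11, 4.67 and 4.72 CPM. In ControlB it was at 7.61, 7.80 and 8.37 CPM and in ApoE3 at 15.1 and 18.7 CPM. Levels in the ControlB samples, which had no fragment, were above those in every ApoE4 sample. It rose by a log2 fold change of 0.98 (SE 0.196, adjusted p = 0.00196) after nApoE4, the smallest of the 7 rises, which was 1.26 without ControlA replicate 2, and by 1.22 (SE 0.0824, adjusted p = 4.72e-08) after nApoE3.

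*Clec5a* encodes MDL-1, a receptor coupled to DAP12 and known for binding flaviviruses. ControlA replicates were at 48.1, 52.6 and 47.4 CPM and ApoE4 replicates at 158, 144 and 165 CPM. ControlB replicates were at 61.1, 61.9 and 64.3 CPM and ApoE3 replicates at 136 and 141 CPM. No control sample reached any treated sample. The rise was 3.35-fold (log2 1.75, SE 0.083, adjusted p = 1.05e-07) after nApoE4 and 2.43-fold (log2 1.28, SE 0.0299, adjusted p = 2.1e-12) after nApoE3.

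*Clec4a1*, *Clec4a2* and *Clec4a3* encode the related proteins DCIR4, DCIR1 and DCIR3, of which DCIR1 is known as an inhibitory receptor. *Clec4a1* (chr6:122921848-122934619) was at 2.52, 2.72 and 2.80 CPM in ControlA and at 14.7, 13.3 and 14.0 CPM in ApoE4. In the second experiment it went from 1.76, 1.69 and 2.1 CPM in ControlB to 7.25 and 7.09 CPM in ApoE3. Its groups did not overlap, and it rose 5.55-fold after nApoE4 (log2 2.47, SE 0.0996, adjusted p = 3.5e-08) and 4.26-fold after nApoE3 (log2 2.09, SE 0.113, adjusted p = 6.12e-09).

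*Clec4a2* (chr6:123122690-123143999) was at 3.93, 4.62 and 3.84 CPM in ControlA and 3.62, 3.53 and 4.17 CPM in ApoE4, and these groups overlapped. It was at 1.91, 2.03 and 2.06 CPM in ControlB and 1.57 and 1.32 CPM in ApoE3, where both treated samples were the lower ones. Neither difference passed the test, with a log2 fold change of -0.04, which crossed 0 without ControlA replicate 2 or ApoE4 replicate 2 (95% interval -0.35 to 0.26, adjusted p = 0.807) after nApoE4 and -0.33 (-0.67 to 0.01, adjusted p = 0.0807) after nApoE3.

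*Clec4a3* (chr6:122952515-122969878) was at 40.2, 42.4 and 40.7 CPM in ControlA and at 37.3, 34.8 and 37.1 CPM in ApoE4. Although these CPM values did not overlap, the difference did not pass the test, which scales libraries by TMM factors (0.96 to 1.05 in this fit), with a log2 fold change of -0.09 (95% interval -0.24 to 0.06, adjusted p = 0.289). In ControlB it was at 39.5, 40.6 and 40.9 CPM and in ApoE3 at 29.5 and 29.4 CPM. After nApoE3 it fell 1.25-fold (log2 -0.32, SE 0.0355, adjusted p = 4.8e-06), as the single member that fell in either experiment.

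*Clec12a* encodes MICL, an inhibitory receptor known for sensing uric acid crystals, at chr6:129349783-129365303. ControlA replicates were at 10.6, 16.6 and 11.6 CPM, with replicate 2 apart from the other two, and ApoE4 replicates at 41.8, 42.4 and 46.6 CPM. ControlB replicates were at 4.29, 4.65 and 5.11 CPM and both ApoE3 replicates at 26.1 CPM. Treated samples were above control samples in both experiments. The rise was 3.57-fold (log2 1.84, SE 0.158, adjusted p = 6.96e-06) after nApoE4, with a log2 fold change of 2.08 when ControlA replicate 2 was left out, and 6.13-fold (log2 2.62, SE 0.0608, adjusted p = 2.08e-12) after nApoE3.

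*Clec2d* encodes Clr-b, a ligand rather than a pathogen sensor, which natural killer cells read through the receptor encoded by *Klrb1b*. It had the lowest control levels, at 1.31, 1.27 and 1.31 CPM in ControlA and 0.344, 0.54 and 0.735 CPM in ControlB (24 to 41 counts). In ApoE4 it was at 16.2, 14.9 and 17.7 CPM and in ApoE3 at 7.80 and 8.02 CPM, so treated samples were well above the controls of either experiment. It rose 13.3-fold after nApoE4 (95% interval 11.2 to 15.9; log2 3.74, SE 0.112, adjusted p = 5.15e-09) and 16.3-fold after nApoE3 (12.3 to 21.8; log2 4.03, SE 0.189, adjusted p = 1.53e-09). *Klrb1b* was at 0 to 3 counts in every sample and was not tested.

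**Figure D2:**
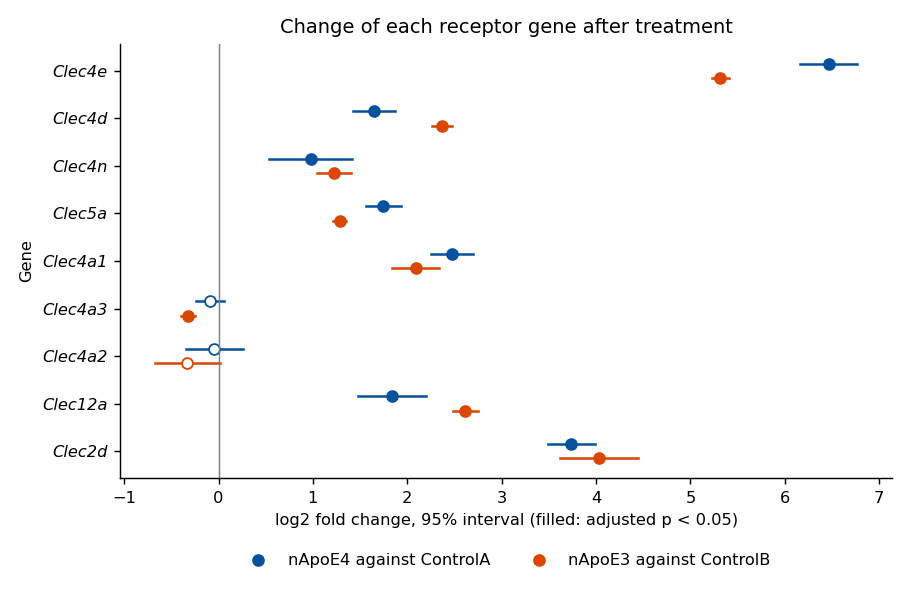
The log2 fold change of each receptor gene against its own controls, with 95% intervals from the edgeR fits, for nApoE4 (blue) and nApoE3 (orange); filled points had an adjusted p under 0.05. *Clec4e* lies furthest to the right at 6.46 and 5.32, and *Clec4a2* and *Clec4a3* lie near 0 for nApoE4.

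To compare levels between genes, CPM were divided by the length in kb of the longest coding transcript in GENCODE M21. On this scale of level per kb, the 9 genes summed to 87.0 ± 6.93 (SD, n = 3) in ControlA and 450 ± 24.3 (SD, n = 3) in ApoE4, and to 98.4 ± 4.0 (SD, n = 3) in ControlB and 476 ± 19.8 (SD, n = 2) in ApoE3. *Clec4a3* at 31.6 ± 0.888 and *Clec4d* at 27.5 ± 2.92 led in ControlA, followed by *Clec5a* (13.2), *Clec12a* (5.16), *Clec4e* (3.05), *Clec4n* (2.11), *Clec4a1* (1.72), *Clec4a2* (1.66) and *Clec2d* (1.07). From *Clec4e* to *Clec4a2*, each gene's samples overlapped those of the next. In ControlB the order was *Clec4d* (33.8), *Clec4a3* (31.0), *Clec5a* (16.7), *Clec4n* (6.45), *Clec4e* (6.11), *Clec12a* (1.87), *Clec4a1* (1.19), *Clec4a2* (0.806) and *Clec2d* (0.445), and of these neighbours *Clec4n* and *Clec4e* overlapped.

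With this length, *Clec4e* came first in both treated groups, at 254 ± 13.3 per kb in ApoE4 and 222 ± 4.96 in ApoE3, with *Clec4d* (81.0 and 159), *Clec5a* (41.6 and 37.0) and *Clec4a3* (28.0 and 22.6) behind it. Further down, *Clec12a* (17.4), *Clec2d* (13.4), *Clec4a1* (8.98) and *Clec4n* (3.93) followed in ApoE4, and *Clec4n* (13.8), *Clec12a* (10.4), *Clec2d* (6.52) and *Clec4a1* (4.6) in ApoE3, with *Clec4a2* last in both (1.52 and 0.584). No neighbours overlapped in the treated groups. The share of *Clec4e* in the summed level went from 3.49% in ControlA to 56.5% in ApoE4 and from 6.21% in ControlB to 46.6% in ApoE3. The order depends on the length used, which is 2.518 kb for *Clec4e* here, while its exons together span 4.965 kb. With the union of exons as the length, an alternative added after the data were seen, *Clec4e* stood at 129 and *Clec4d* at 67 in ApoE4, but *Clec4d* came first in ApoE3, at 131 against 112 for *Clec4e*, and the share of *Clec4e* was 43.1% and 34.1%. In the controls this length put *Clec4a3* before *Clec4d* in both groups and *Clec4e* at 1.55 in ControlA, behind *Clec4n* and *Clec4a1*.

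**Figure D3:**
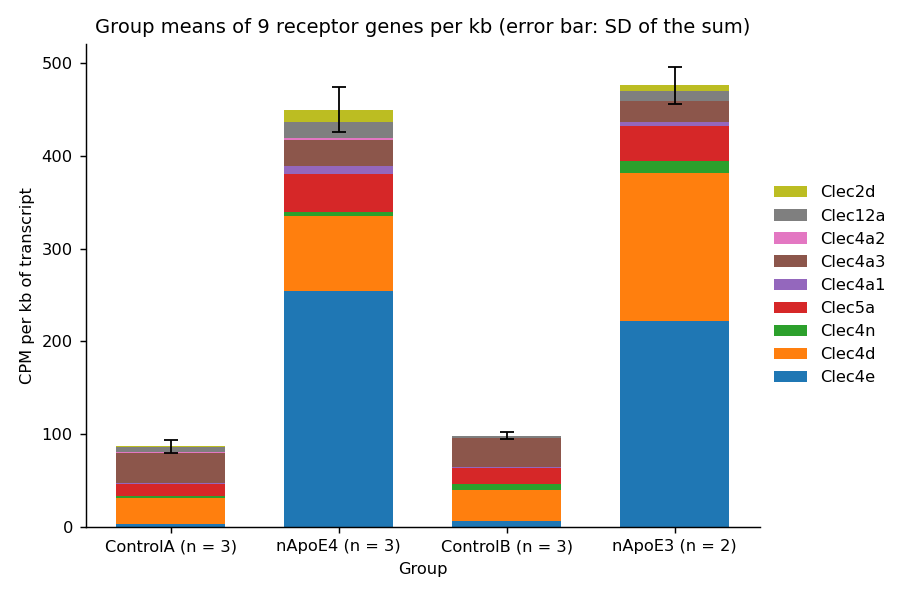
Stacked group means of the 9 receptor genes in CPM per kb of the longest coding transcript, with error bars for the SD of the sum over samples. The sums stand at 87.0 and 98.4 in ControlA and ControlB and at 450 and 476 in ApoE4 and ApoE3, and most of the treated bars is *Clec4e* and *Clec4d*.

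Whether the receptors responded differently in the 2 experiments, each with its own fragment, was tested over all 11 samples. The value tested was the log2 fold change after nApoE4 minus that after nApoE3, in which fragment and experiment cannot be told apart. The difference passed for 4 of the 9 members, where 28.3% of the 15287 genes tested passed, 14.4% with a positive and 13.9% with a negative difference. *Clec4e* and *Clec5a* rose more after nApoE4, by a log2 difference of 1.14 (95% interval 0.83 to 1.45, adjusted p = 6.61e-05) and 0.45 (0.23 to 0.67, adjusted p = 0.00448). *Clec4d* and *Clec12a* rose more after nApoE3, with log2 differences of -0.73 (-1.02 to -0.45, adjusted p = 0.00111) and -0.79 (-1.24 to -0.34, adjusted p = 0.0131). The other 5 did not pass: *Clec4a1* 0.37 (0.05 to 0.68, adjusted p = 0.077), *Clec4a3* 0.23 (0.05 to 0.40, adjusted p = 0.0509), *Clec4a2* 0.27 (-0.16 to 0.71, adjusted p = 0.346), *Clec2d* -0.30 (-0.83 to 0.23, adjusted p = 0.401) and *Clec4n* -0.26 (-0.75 to 0.24, adjusted p = 0.447). Without ControlA replicate 2, the difference for *Clec4a3* was 0.28 and passed (adjusted p = 0.00449), and that for *Clec4n* was 0.03 (adjusted p = 0.917).

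The controls of the experiments, which share samples with the comparison above, differed in 8 of the 9 members, where 69.3% of the 14249 genes tested differed, 34.9% being higher and 34.4% lower in ControlA. Higher in ControlA were *Clec12a* (log2 difference 1.43, adjusted p = 0.000204), *Clec2d* (1.24, adjusted p = 0.00316), *Clec4a2* (1.01, adjusted p = 0.00019) and *Clec4a1* (0.50, adjusted p = 0.0111). Lower in ControlA were *Clec4n* (-1.64, adjusted p = 9.44e-05), *Clec4e* (-1.04, adjusted p = 0.000153), *Clec5a* (-0.38, adjusted p = 0.00112) and *Clec4d* (-0.34, adjusted p = 0.0135). The call for *Clec4d* was lost without ControlA replicate 1 (adjusted p = 0.0558) or without ControlB replicate 3 (adjusted p = 0.0501). *Clec4a3* differed by -0.01 (-0.14 to 0.11, adjusted p = 0.838), and the CPM of the 2 control groups overlapped among the members for this gene alone, where 73.8% of all genes tested did not overlap. For *Clec4e* the log2 difference between controls was close in size to the difference in response and opposite in sign, with treated means of 639 and 559 CPM. The same held for *Clec5a* (-0.38 between controls and 0.45 in response), with treated means of 156 and 139 CPM. *Clec12a* also had opposite signs (1.43 and -0.79), while both differences of *Clec4d* were negative (-0.34 and -0.73).

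**Figure D4:**
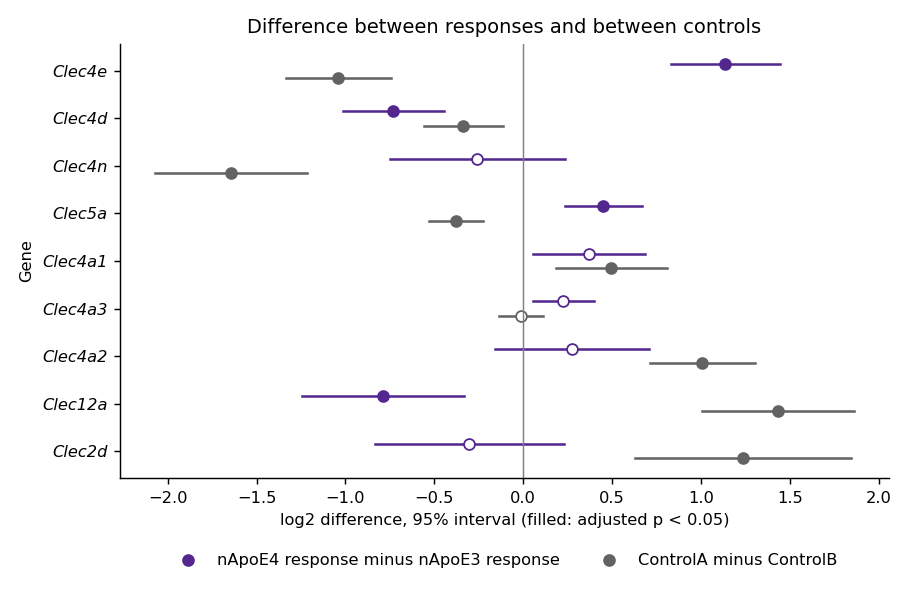
For each receptor gene, the difference between the nApoE4 and nApoE3 responses (purple) and between ControlA and ControlB (grey), on the log2 scale with 95% intervals; filled points had an adjusted p under 0.05. *Clec4e* shows 1.14 for the responses and -1.04 for the controls, and *Clec4d* and *Clec12a* lie at -0.73 and -0.79 for the responses.

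The adaptors of these receptors did not rise with them after nApoE4. Of 3 listed adaptor genes, none rose and 2 fell after nApoE4, and 1 rose and 1 fell after nApoE3, where 57.2% and 67.7% of all genes tested changed. The same shares stand as background for the lists that follow, with 28.6% of genes rising and 28.6% falling after nApoE4 and 33.1% and 34.6% after nApoE3. *Fcer1g* (FcRγ) had a log2 fold change of -0.13 (SE 0.0986, adjusted p = 0.302) after nApoE4 and rose by 0.56 (SE 0.0261, adjusted p = 1.49e-09) after nApoE3, a difference that passed the test (-0.69, adjusted p = 0.000898). *Tyrobp* (DAP12) fell by 0.29 on the log2 scale (adjusted p = 0.0339) after nApoE4 and by 0.16 (adjusted p = 0.000434) after nApoE3, and the latter call was lost when all 11 samples entered one fit (-0.15, adjusted p = 0.197). *Hcst*, which encodes the adaptor DAP10, fell by 0.39 (adjusted p = 0.0425) after nApoE4, and its log2 fold change after nApoE3 was 0.16 (adjusted p = 0.297). The nApoE4 calls of *Tyrobp* and *Hcst* were lost without ControlA replicate 1 (adjusted p = 0.0664 and 0.0509) and without ApoE4 replicate 1 (0.0949 and 0.132) or 2 (0.108 and 0.119), and that of *Hcst* without ControlA replicate 2 (0.106). All 3 adaptors were higher in ControlA than in ControlB, by log2 differences of 1.12 for *Fcer1g*, 1.35 for *Tyrobp* and 1.10 for *Hcst*.

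Of 10 kinases and signal carriers, 5 rose and 4 fell after each fragment, and these were not all the same genes. *Fyn*, a Src family kinase gene, rose after nApoE4 (log2 0.95, adjusted p = 1.22e-06) and fell after nApoE3 (log2 -0.21, adjusted p = 0.000228), while *Vav1*, which encodes a signal carrier, fell after nApoE4 (log2 -0.15, adjusted p = 0.0387) and rose after nApoE3 (log2 0.21, adjusted p = 1.32e-05). The calls of *Fyn* and *Vav1* were not checked under the alternative settings or without single samples. *Syk* went from 140 CPM ± 11.6 (SD, n = 3) in ControlA to 437 ± 28.3 (SD, n = 3) in ApoE4 and from 127 ± 1.77 (SD, n = 3) to 348 ± 8.05 (SD, n = 2) in the second experiment, log2 rises of 1.74 (adjusted p = 3.9e-08) and 1.59 (adjusted p = 8.63e-14). The kinase gene *Src* rose by 2.93 after nApoE4 and by 3.44 after nApoE3. All 3 genes of the CARD9 complex rose after nApoE4, led by *Malt1* at 2.68 (2.12 after nApoE3). *Card9* went in opposite directions: it rose from 106 CPM ± 2.35 to 147 ± 5.08 after nApoE4 (log2 0.56, adjusted p = 2.57e-05) and fell from 70 CPM ± 1.84 to 38.5 ± 1.33 after nApoE3 (log2 -0.73, adjusted p = 2.27e-09). The difference between these responses was 1.28 (adjusted p = 7.46e-08). Of 5 genes for inhibitors of this signalling, 1 rose and 2 fell after nApoE4 and 2 rose and 3 fell after nApoE3, with *Inpp5d*, which encodes the lipid phosphatase SHIP1, lower by -1.30 and -1.43.

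**Figure D5:**
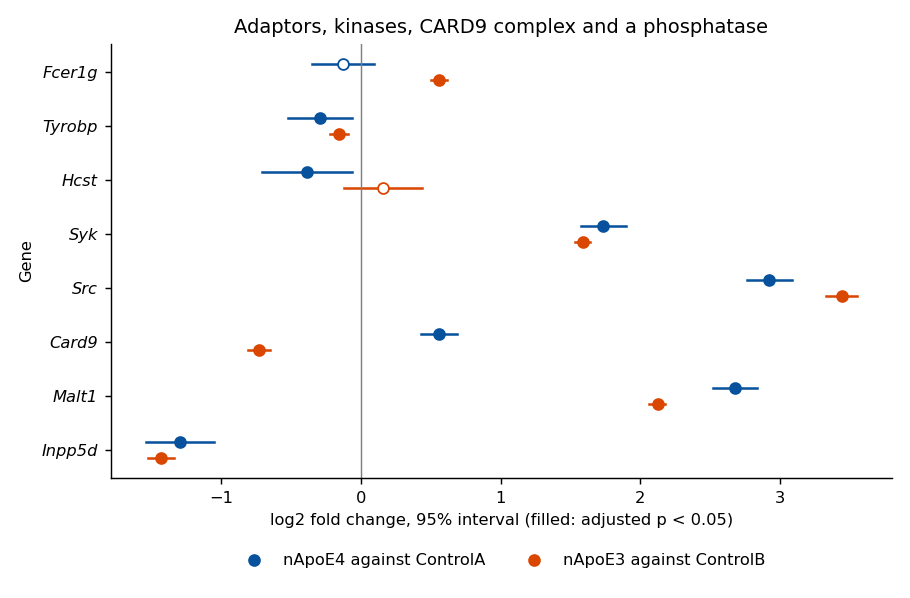
The log2 fold change of 8 genes that act after the receptors, against each fragment's own controls, with 95% intervals (nApoE4 blue, nApoE3 orange; filled points had an adjusted p under 0.05). *Syk*, *Src* and *Malt1* lie to the right of 0 for both fragments, *Inpp5d* to the left, and *Card9* on opposite sides at 0.56 and -0.73.

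Of 9 genes for transcription factors downstream of these receptors, 8 were tested, and 5 rose and 3 fell after each fragment, against 57.2% and 67.7% of all genes that changed. *Relb* and *Nfkb2* rose by 3.30 and 2.60 after nApoE4 and by 1.92 and 2.36 after nApoE3, and *Egr3* fell by 3.77 and 2.81. Of 10 known outputs of myeloid lectin receptors, 8 of 9 tested rose after nApoE4 and 7 of 8 after nApoE3, while *Il6* was at 0 in all samples. The annotation and strand setting used for counting are not known, and their part in the *Il6* value was not tested. *Cxcl2* went from 0.565 CPM ± 0.215 to 266 ± 5.4 and from 0.882 ± 0.0814 to 236 ± 2.44. *Il12b* was at 3 to 5 counts in every control sample and at 53.1 CPM ± 5.76 in ApoE4 and 16.3 ± 2.54 in ApoE3, and *Nos2*, the inducible nitric oxide synthase, at 40.3 ± 2.87 and 45.6 ± 15.3, against 0.618 and 0.172 CPM in the controls. These outputs are shared with other inflammatory receptors.

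Among 5 genes for transcription factors of the myeloid lineage, 3 rose and 2 fell after each fragment. Of the genes for factors that bind C/EBP motifs, *Cebpd* rose by 2.94 and 2.67 and *Cebpa* fell by 1.27 and 1.72. *Cebpb* also rose, from a mean of 38.9 CPM in ControlA to 97.9 in ApoE4 and from 109 in ControlB to 217 in ApoE3. *Irf8* fell by 1.44 and 0.94. *Sap130*, whose protein is a Mincle ligand, had a log2 fold change of 0.03 (adjusted p = 0.794) after nApoE4 and fell by 0.08 (adjusted p = 0.0178) after nApoE3.

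Of 55 other listed genes with a C-type lectin-like domain found among those counted, 10 were at 0 in all samples and 18 were tested in each experiment. After nApoE4, 5 rose and 3 fell, and after nApoE3, 6 rose and 4 fell. By adjusted p alone, the shares of risers were close to those over all genes (28.6% and 33.1%). With a fold change above 2 required as well, the same 5 and 6 rose, where 10.2% and 9.6% of all genes did. The 4 with the highest mean level were *Colec12*, a scavenger receptor (-0.98 and -0.75), *Mrc1*, the mannose receptor (-0.38 and -0.42), *Cd302* (1.11 and 1.02) and *Cd72*, which had a log2 fold change of -0.09 (adjusted p = 0.534) after nApoE4 and rose by 1.37 (adjusted p = 2.42e-09) after nApoE3. Larger changes stood among genes of lower mean level. Mean *Cd69* went from 0.0708 CPM to 12.2 after nApoE4 and from 0.304 to 23.9 after nApoE3. Mean *Ly75* went from 0.201 to 8.26 and from 0.14 to 3.71. In the other direction, mean *Thbd* went from 14.7 to 1.07 and from 18.1 to 1.68. *Clec4a4* and *Clec4b1*, which lie within the stretch of the *Clec4* members, were at no more than 69 and 12 counts in any sample, and neither passed the test (adjusted p = 0.215 and 0.413 after nApoE4, 0.326 and 0.697 after nApoE3).

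The pattern of *Clec4e* over the 11 samples, as log2(CPM + 0.1), was most like those of *Snx10*, *Gpr84* and *Nfe2l2* (Pearson's r of 0.9986, 0.998 and 0.9977) among 11697 genes with a mean of at least 1 CPM. Among the members, *Clec5a* was most like it (r of 0.996), *Clec4n* had an r of 0.496, and *Clec4a3* ran the other way (-0.784). These values describe 11 points in 4 groups, which share their treatment and library type within a group.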

How the data were processed

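RNA-seq of 11 BV2 samples was used. Per the labels and methods, the authors trimmed single-end reads with Trim Galore 0.5.0, checked them with FastQC 0.11.8, mapped them to GRCm38.p6 with HISAT2 2.1.0, counted them per gene with HTSeq 0.11.0 and deposited raw counts. The annotation release and strand setting are not given in the sources used here, and reads mapping to several places (11.7 to 13.2%) were not counted. Groups and replicate numbers came from the labels. The members and gene lists were chosen with earlier results of these data known.

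Counts were fitted in R 4.3.3 with edgeR 4.0.16 (filterByExpr, TMM, quasi-likelihood test, Benjamini-Hochberg adjustment over all genes tested, adjusted p under 0.05), each fragment against its own controls, with a contrast over 4 group means for the difference in response. CPM use plain library totals. Approximate standard errors were derived from the size of the log2 fold change and the F statistic. The code was tested on simulated data. Named were all 9 members, *Fcer1g*, *Tyrobp*, *Hcst*, *Syk* and *Card9*, at most 3 genes per pathway list with the largest change past the threshold and a fold above 2, the 4 other lectin-like genes of highest mean CPM, and the 3 genes most like *Clec4e*. *Clec4a4*, *Clec4b1*, *Klrb1b*, *Sap130*, *Il6*, *Fyn*, *Vav1*, *Cebpb*, *Cd69*, *Ly75*, *Thbd* and single markers were named after their values were seen. One listed gene was left out of its list and is not reported here. Alternatives were DESeq2 1.42.0, its size factors, other count filters, all samples in one fit, thinned counts, a replicate block and leaving out each sample. Intervals and the floor of 3 counts cover what each states, the floor counting error only.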

Additional observations from a re-analysis of the deposited data

Results flagged for a closer look

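For 4 of the 9 receptor genes, the responses to nApoE4 and nApoE3 differed when the difference itself was tested (edgeR, all 11 samples). Of all genes tested, 28.3% differed in this way. The log2 difference was 1.14 for *Clec4e* and 0.45 for *Clec5a*, which rose more after nApoE4, and -0.73 for *Clec4d* and -0.79 for *Clec12a*, which rose more after nApoE3. The same 4 genes also differed between the untreated groups, by -1.04, -0.38, -0.34 and 1.43 in the order named. Such a difference between controls was found for 8 of the 9 members and for 69.3% of all genes tested. The control call of *Clec4d* was lost without ControlA replicate 1 or without ControlB replicate 3. Fragment and experiment cannot be told apart for any of these 4 genes.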

How the results depend on the processing

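The 7 rises after nApoE4, and the 7 rises and 1 fall after nApoE3, kept their direction and call under every alternative run. Over all genes, the replicate block moved the number that differed in response from 4331 to 2307, a change of more than 1.5 times, and gave 7036 genes for nApoE4, 9785 for nApoE3 and 9376 between controls. Samples with the same number did not deviate together (correlations from -0.211 to -0.00199, and no sample correlated best with its own number), so the pairing was not used. Leaving out each sample gave 7142 to 8827 genes for nApoE4, 9121 to 9837 for nApoE3, 3040 to 5250 for the difference in response and 8949 to 10988 between controls. For single members, the difference in response of *Clec4a3* passed with at least 1 count (adjusted p = 0.0427), with at least 10 counts in every sample (0.0335), and without ControlA replicate 2 (0.00449) or ApoE4 replicate 2 (0.0196). The block ended the call of *Clec5a* in the difference in response (0.43, adjusted p = 0.0751) and the nApoE4 calls of *Tyrobp* (adjusted p = 0.0979) and *Hcst* (0.0836). With at least 1 count as the filter, the median of all genes between controls shifted to -0.109. Leaving out single samples turned the sign of values that had not passed. The ranges given here for members cover all alternatives run. *Clec4a2* after nApoE4 ranged from -0.12 to 0.0687 (above 0 without ControlA replicate 2 or ApoE4 replicate 2). *Clec4n* in the difference in response ranged from -0.417 to 0.0272 (above 0 without ControlA replicate 2). *Clec4a3* between controls ranged from -0.0652 to 0.0109 (above 0 without ControlA replicate 1 or 3, and 0.0028 with thinned counts). *Hcst* after nApoE3 ranged from -0.0296 (without ApoE3 replicate 1) to 0.32. The causes were not tested. The ApoE3 group has 2 samples, and counts of 24 to 57 limit the control levels of *Clec2d*.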
